A study of Mus musculus with 10 samples.

Results

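The CXC chemokines described here were 8 genes chosen by symbol, Cxcl1, Cxcl2, Cxcl3, Cxcl9, Cxcl10, Cxcl13, Cxcl14 and Cxcl16, of 28585 genes in the count table. All 8 were in the table and all 8 passed the filter on low counts, which kept 15151 genes. The study sequenced polyadenylated RNA from fluorescent cells sorted out of the ischemic hemisphere of mouse brain, and set CD11c+ cells that had entered the brain against microglia. Microglia (3 libraries) came from CX3CR1CreERT2:Rosa26-tdT mice aged 13 to 14 weeks, in which a tamoxifen-inducible Cre under the control of Cx3cr1 switches on the red protein tdTomato. Parabiotic CD11c cells (3 libraries) were the eYFP+ cells of C57BL/6 mice, 15 to 16 weeks of age, whose circulation was joined to that of a Tg(Itgax-Venus)1Mnz partner. Transgenic CD11c cells (4 libraries) were the eYFP+ cells of Tg(Itgax-Venus)1Mnz mice aged 13 to 14 weeks, in which Itgax, the gene for CD11c, drives the yellow reporter. All mice whose labels give a sex were female, the reporters mark any cell that uses the driving promoter, and strain, age and sort cannot be told apart from the group. The labels of parabiotic replicate 15 give C57BL/6 as strain and Tg(Itgax-Venus)1Mnz as genotype but no cell type or sex, and its title and age placed it in the group. The labels do not say that the libraries of a group came from separate animals, so p-values measure the spread between these libraries.

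Chemokines are small secreted proteins that direct migrating leukocytes through G protein-coupled receptors, and the CXC class has a single residue between its first pair of cysteines. Cxcl1, Cxcl2 and Cxcl3 carry the ELR motif, signal through Cxcr2 and recruit neutrophils, and their genes respond to NF-kappaB. Cxcl9 and Cxcl10 are induced by interferons and attract activated T cells and NK cells through Cxcr3. Cxcl13 directs B cells through Cxcr5, Cxcl14 is a chemokine of epithelia and other tissues whose receptor is not settled, and Cxcl16 is made as a transmembrane protein that binds Cxcr6 and also takes up oxidised lipoprotein.

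The libraries held 31534625 to 41730688 counts and 20312 to 22165 genes with a count. Levels are given as TMM-scaled counts per 1000000 (CPM), with SD between libraries, and levels of different genes are compared only after division by the length of all annotated exons in kilobases. The library numbers of transgenic replicates 26 and 27 lay outside the run of consecutive numbers of the other 8. A fit with a term for this pair gives the values called within-run here, which rest on transgenic replicates 23 and 24. Run means this series of library numbers and not a known sequencing run. The summed level of 8 microglial markers, P2ry12 and Tmem119 among them, was 17820 to 20470 CPM in microglia, 2051 to 3584 CPM in parabiotic cells, and 10870, 11080, 17010 and 5884 CPM in transgenic replicates 23, 24, 26 and 27. The summed level of 9 markers of conventional dendritic cells, such as Flt3 and H2-Ab1, was 82.9 to 134.9 CPM, 13200 to 17360 CPM, and 7754, 7777, 1931 and 3307 CPM in the same order. No gene of these lists was at 0 in all libraries of a group, and the transgenic sort therefore held transcripts of both kinds of marker in unequal amounts. In such bulk libraries fewer cells of a type and less RNA per cell cannot be told apart.

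In parabiotic CD11c cells Cxcl2, Cxcl10 and Cxcl13 were lower than in microglia and Cxcl14 and Cxcl16 were higher. Expressed as folds, Cxcl10 was 20.1-fold and Cxcl2 5.00-fold lower, and Cxcl14 was 2.57-fold and Cxcl16 2.09-fold higher. Thus 3 of 8 members were lower beside 17.9% of all genes tested, 2 of 8 were higher beside 17.4%, and 3 were not called (edgeR quasi-likelihood test, Benjamini-Hochberg adjusted p under 0.05). Calls in either direction covered 5 of 8 members beside 35.3% of all genes. The libraries of the groups did not overlap for 6 of 8 members, 4 lower beside 29.7% of all genes and 2 higher beside 30.5%, or 60.3% in either direction. The median log2 fold change of the 8 was -0.74, and over all genes tested it was -0.02. Calls were thus common across the whole table, and the members' count is to be read against that.

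Between transgenic CD11c cells and microglia 2 of 8 members were higher (Cxcl14 and Cxcl16) beside 8.88% of all genes, 1 was lower (Cxcl13) beside 4.79%, and 5 were not called in the edgeR test (13.7% of all genes were called in either direction). The libraries did not overlap for 2 of 8, with 1 higher beside 15.6% of all genes and 1 lower beside 14.7%, or 30.3% in either direction, and the median log2 fold change was 0.39 against 0.02 over all genes. Without microglia replicate 40 none of the 8 was called in edgeR, while 4 had an unadjusted p under 0.05, and in the within-run fit 1 was called, with 3 members at an unadjusted p under 0.05. Both DESeq2 and limma-voom called 3 members.

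Between the CD11c sorts, 4 of 8 members were higher in transgenic than in parabiotic cells, namely Cxcl1, Cxcl2, Cxcl10 and Cxcl13, beside 7.63% of all genes (10.1% in either direction). None of 8 was lower at the adjusted threshold in edgeR, beside 2.42%, although Cxcl16 had an unadjusted p of 0.0148 and was called lower by DESeq2. The libraries did not overlap for 5 of 8, with 4 higher beside 12.4% of all genes and 1 lower beside 10.3%, or 22.7% in either direction, and the median log2 fold change was 2.02 against 0.04 over all genes. Any 2 of the 3 comparisons share a group of libraries, so each is given by its own values.

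**Figure D1:**
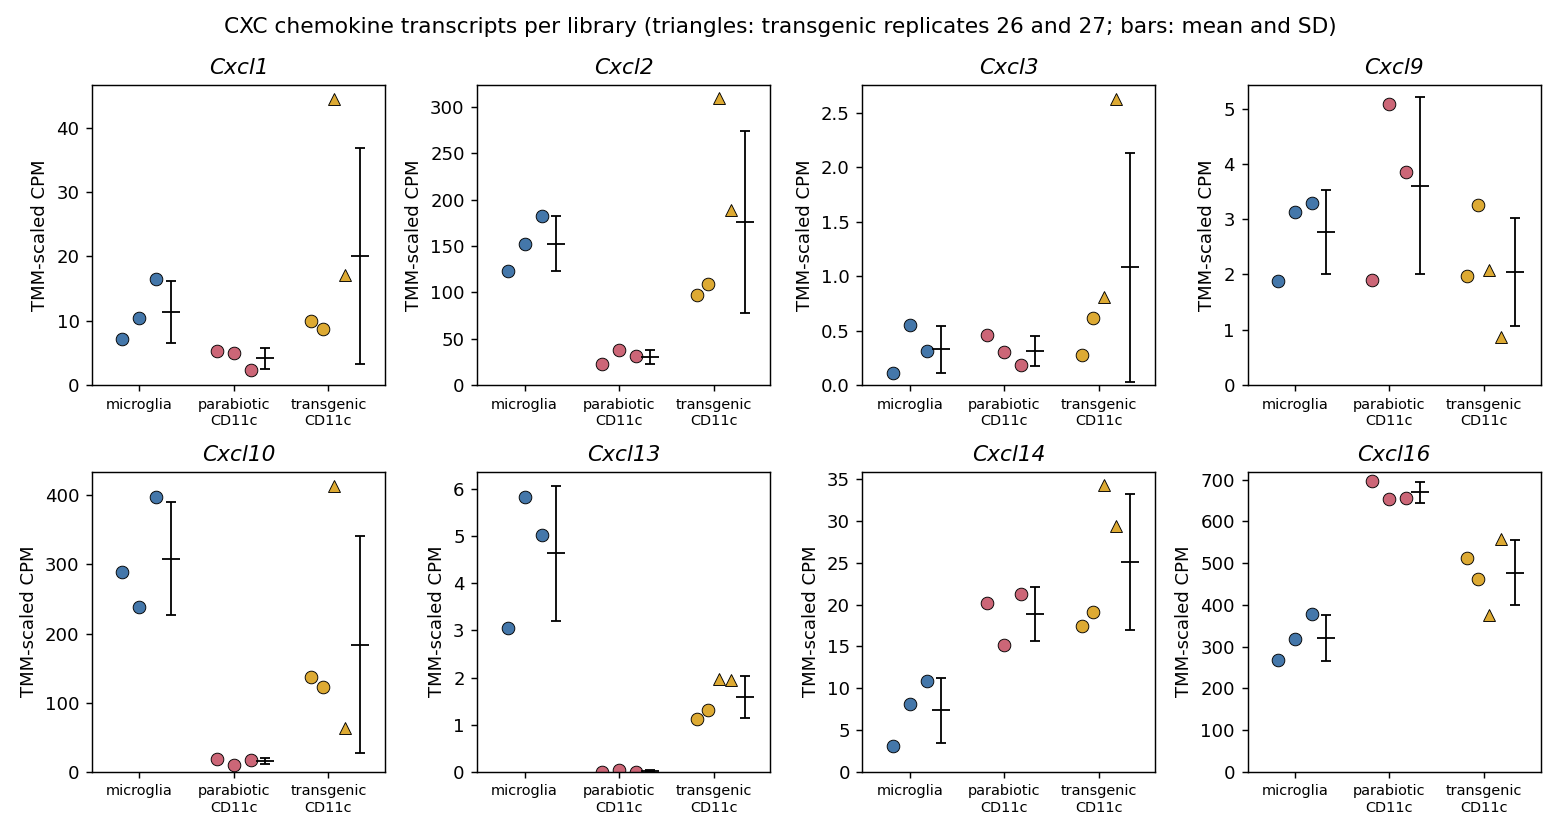
Levels of the 8 CXC chemokines in TMM-scaled CPM (vertical axis, one scale per gene) in each library of the 3 groups (horizontal axis), with triangles for transgenic replicates 26 and 27 and bars for mean and SD. Cxcl2, Cxcl10 and Cxcl13 are lowest in the 3 parabiotic libraries, whereas Cxcl16 is highest there at 653.5 to 697.4 CPM.

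Cxcl1, Cxcl2 and Cxcl3 lie within a short stretch of mouse chromosome 5 on the forward strand (GRCm38). Cxcl3 occupies chr5:90786103-90789600, Cxcl1 chr5:90891241-90893115 at a gap of 101.6 kb, and Cxcl2 chr5:90903871-90905938 at a further gap of 10.8 kb. Their promoters are shown because these neighbours stood at different levels and each holds matches to the same motif. The promoter table holds 250 bases before and 50 after each start (RefSeq, GRCm38.p6) and 7 of the 8 members, all but Cxcl16. It was searched on both strands for the NF-kappaB motif, GGG and TTCC with any 3 bases between them, which 5.56% of 32851 promoters hold. Each of these 3 promoters had 3 matches, of which a forward and a reverse one overlap at a palindrome. The sequences are written 5′ to 3′ on the forward strand, with motif matches in capitals. They come from chr5:90786001-90786100, chr5:90891145-90891240 and chr5:90903799-90903870 in this order. The Cxcl3 sequence ends at the base before the RefSeq start. Those of Cxcl1 and Cxcl2 end at the base before the gene positions given above, since their RefSeq starts lie inside the annotated gene.
Cxcl3: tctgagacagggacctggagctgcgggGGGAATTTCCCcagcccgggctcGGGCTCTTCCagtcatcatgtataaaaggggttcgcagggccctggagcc
Cxcl1: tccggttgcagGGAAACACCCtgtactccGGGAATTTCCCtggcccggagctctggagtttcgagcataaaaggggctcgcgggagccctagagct
Cxcl2: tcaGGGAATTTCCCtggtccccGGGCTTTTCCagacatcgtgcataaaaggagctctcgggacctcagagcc
Counted from the RefSeq start, the matches lay between 97 and 69 bases before it in Cxcl2, 73 and 41 in Cxcl3 and 89 and 61 in Cxcl1. The printed Cxcl1 and Cxcl2 sequences stop short of that start, so these distances do not count from their printed ends. A match is a description of letters and not of a bound site.

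Cxcl2 was the most abundant of the ELR chemokines per length in every library. It stood at 122.7, 152.0 and 181.8 CPM in microglia, at 22.3, 37.5 and 31.5 CPM in parabiotic cells, and at 96.7, 108.7, 309.2 and 188.3 CPM in transgenic replicates 23, 24, 26 and 27. All 3 parabiotic libraries lay below every other library, and the transgenic libraries spread across the microglial range and beyond it. The level fell by 2.32 ± 0.41 (SE) on the log2 scale from microglia to parabiotic cells (edgeR adjusted p = 0.00125) and was higher in transgenic than in parabiotic cells by 2.53 ± 0.40 (edgeR adjusted p = 0.00233, within-run value 1.75). Transgenic cells against microglia were not called (0.21 ± 0.36, edgeR adjusted p = 0.725). The within-run value of that last difference was -0.57, since replicates 23 and 24 lay below all microglial libraries and replicates 26 and 27 above. Of the 50-base stretches of Cxcl2 5.84% occur elsewhere in the annotated transcripts, mostly in Cxcl3, so reads there could be split between both genes.

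Cxcl1, made by glia and endothelium as well as by myeloid cells, was at 7.08, 10.5 and 16.5 CPM in microglia and at 5.28, 4.92 and 2.31 CPM in parabiotic cells. In transgenic cells it was at 9.96, 8.65, 44.5 and 17.2 CPM, so that replicate 26 stood above all other libraries of the study. The difference between transgenic and parabiotic cells was 2.27 ± 0.59 (edgeR adjusted p = 0.0332). That call was lost under 10 of 21 alternatives, with adjusted p from 0.000553 to 0.154. Among these were the within-run fit (1.16), limma-voom (2.04), and the fits without transgenic replicate 26 (1.47), without any one of the parabiotic libraries (1.97 to 2.47) and without microglia replicate 40 (2.27). Parabiotic libraries lay below all microglial ones, but the difference of -1.44 ± 0.60 was not called (edgeR adjusted p = 0.085). It was called without transgenic replicate 26 (edgeR adjusted p = 0.0229), in the fit of these groups alone, in the within-run fit and in DESeq2, over a range of 0.00702 to 0.249. Against microglia the transgenic libraries overlapped (0.83 ± 0.55, edgeR adjusted p = 0.325, within-run value -0.29).

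Cxcl3 was scarce. Microglia had 0.113, 0.552 and 0.316 CPM, parabiotic cells 0.459, 0.304 and 0.182 CPM, and transgenic cells 0.279, 0.62, 0.809 and 2.63 CPM. Only transgenic replicate 27 exceeded 1 CPM, and no pair of groups was separated. The 3 differences, -0.04 ± 0.85, 1.73 ± 0.79 and 1.77 ± 0.79 in the order parabiotic against microglia, transgenic against microglia and transgenic against parabiotic, were not called (edgeR adjusted p = 0.974, 0.156 and 0.201). The second was called without transgenic replicates 23 and 24 (2.35, edgeR adjusted p = 0.0371), over a range of 0.0371 to 0.806, and microglia and parabiotic cells had only 32 counts each over 3 libraries. Per kilobase Cxcl2 exceeded Cxcl3 by 465 to 1840 times in microglia, by 82.0 to 293 times in parabiotic cells and by 121 to 646 times in transgenic cells. With the longest protein-coding transcript as the length, these ratios were 150 to 594, 26.5 to 94.6 and 39.1 to 209.

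Cxcl10 and Cxcl9 are neighbours on the reverse strand of chromosome 5, at chr5:92346638-92348889 and chr5:92321347-92328079, with a gap of 18.6 kb (GRCm38). Cxcl10 overlaps Art3 on the other strand, and since the library kit keeps no strand, reads of both genes there cannot be told apart. Both promoters are shown since Cxcl10 passed the test in 2 comparisons and its neighbour Cxcl9 in none. The interferon-stimulated response element, taken as GAAA, any 2 bases and GAAA, occurs in 3.44% of all promoters, and the gamma-activated site, taken as TTC, any 3 bases and GAA, in 8.30%. Among the 7 member promoters searched, Cxcl10 and Cxcl14 held 1 interferon motif each, and Cxcl14 alone held a gamma-activated site. In the Cxcl10 promoter the interferon motif lay between 213 and 204 bases before the start, beside 2 NF-kappaB matches. The Cxcl9 promoter held none of the 3 motifs in this window. Both are written 5′ to 3′ on the reverse strand up to the base before the start, with matches in capitals, from chr5:92348890-92349109 and chr5:92328080-92328299 (RefSeq, GRCm38.p6).
Cxcl10: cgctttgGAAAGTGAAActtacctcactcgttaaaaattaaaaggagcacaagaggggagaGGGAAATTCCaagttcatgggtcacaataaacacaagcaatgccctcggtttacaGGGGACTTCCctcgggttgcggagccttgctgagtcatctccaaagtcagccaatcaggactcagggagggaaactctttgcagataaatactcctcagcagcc
Cxcl9: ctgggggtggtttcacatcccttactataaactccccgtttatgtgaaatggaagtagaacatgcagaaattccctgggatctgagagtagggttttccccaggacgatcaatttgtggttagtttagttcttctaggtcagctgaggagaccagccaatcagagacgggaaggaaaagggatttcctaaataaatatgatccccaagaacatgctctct
The absence of capitals in Cxcl9 says only that these letters are not in the bases searched.

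Cxcl10 was at 288.3, 237.9 and 398.0 CPM in microglia and at 18.6, 10.5 and 16.8 CPM in parabiotic cells. In transgenic cells it was at 136.7, 122.2, 413.9 and 63.0 CPM. The 3 parabiotic libraries lay far below all others, and transgenic replicate 26 lay above every microglial library while the other 3 transgenic libraries lay below them. The level fell by 4.33 ± 0.62 on the log2 scale from microglia to parabiotic cells (edgeR adjusted p = 0.000335), and transgenic exceeded parabiotic cells by 3.59 ± 0.59 (edgeR adjusted p = 0.00289, within-run value 3.08). Transgenic cells against microglia were not called (-0.74 ± 0.50, edgeR adjusted p = 0.328, within-run value -1.25). Without transgenic replicate 26 that difference was -1.55 and called (edgeR adjusted p = 0.0109), over a range of 0.0101 to 0.676 for the 21 alternatives. Within the transgenic group replicate 26 was highest and replicate 27 lowest in both Cxcl10 and the microglial marker sum, and the part of that sum in the result was not tested.

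Cxcl9 stayed low. It was at 1.89, 3.13 and 3.29 CPM in microglia, at 1.89, 5.08 and 3.85 CPM in parabiotic cells and at 1.98, 3.26, 2.07 and 0.876 CPM in transgenic cells. The groups overlapped in all 3 comparisons, and the differences of 0.38 ± 0.49, -0.44 ± 0.46 and -0.82 ± 0.45 were not called (edgeR adjusted p = 0.581, 0.533 and 0.314). The ratio of Cxcl10 to Cxcl9 per kilobase was 102 to 204 in microglia and 2.77 to 13.1 in parabiotic cells, with no overlap between these groups. In transgenic cells the ratio was 50.2 to 267.

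Cxcl13, at chr5:95956951-95961068, was all but absent from parabiotic cells. Microglia had 3.05, 5.83 and 5.03 CPM and transgenic cells 1.11, 1.32, 1.97 and 1.95 CPM. Parabiotic replicates 3 and 15 had no count and replicate 11 had 1 count, or 0.0304 CPM. None of the 3 groups overlapped with another. Over the groups, 457 counts in microglia stood against 1 in parabiotic cells, a ratio of counts per library size of 462 with a 95% exact interval of 82.5 to 18280. For transgenic against parabiotic cells, 247 counts against 1 gave a ratio of 162 (28.8 to 6421). These intervals cover counting error only, and reads of amplified cDNA without molecular identifiers are not independent molecules. Both differences were called (edgeR adjusted p = 1.2e-05 and 0.000212). From microglia to transgenic cells the level fell by 1.54 ± 0.39 on the log2 scale (edgeR adjusted p = 0.0261, within-run value -1.92). That call was lost without microglia replicate 40 (-1.37) or 41 (-1.49) without transgenic replicate 23 (-1.41) and without replicates 23 and 24 (-1.27), with adjusted p over the 20 alternatives from 0.00045 to 0.142.

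Cxcl14, on the reverse strand at chr13:56288643-56296551, was lowest in microglia. It was at 3.10, 8.13 and 10.8 CPM in microglia, at 20.2, 15.2 and 21.3 CPM in parabiotic cells and at 17.4, 19.2, 34.4 and 29.4 CPM in transgenic cells. Every CD11c library lay above every microglial one, and the CD11c groups overlapped. It was higher than in microglia by 1.36 ± 0.41 in parabiotic cells (edgeR adjusted p = 0.0233) and by 1.77 ± 0.40 in transgenic cells (edgeR adjusted p = 0.0147, within-run value 1.32). The first call was lost without microglia replicate 39 (0.99) or 40 (1.40) and without parabiotic replicate 3 (1.31) or 15 (1.27), with adjusted p from 0.00532 to 0.068 over the alternatives. The second was lost without microglia replicate 40 (1.82), in the within-run fit and without transgenic replicates 26 and 27 (1.31), with adjusted p from 0.000186 to 0.073. Between the CD11c groups the difference was 0.41 ± 0.38 (edgeR adjusted p = 0.573, within-run value -0.04).

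Cxcl16, on the reverse strand at chr11:70453983-70459984, was high in all groups and highest in parabiotic cells. It was at 267.4, 317.3 and 376.9 CPM in microglia, at 697.4, 653.5 and 656.9 CPM in parabiotic cells and at 511.4, 462.7, 375.0 and 558.6 CPM in transgenic cells. The parabiotic libraries lay above all others with little spread, and transgenic replicate 26 fell within the microglial range. The difference from microglia was 1.06 ± 0.18 in parabiotic cells (edgeR adjusted p = 0.00114), a call kept under all 21 alternatives. In transgenic cells it was 0.57 ± 0.17 (edgeR adjusted p = 0.0498, within-run value 0.60), and this call was lost under 14 of 21 alternatives, with adjusted p from 0.019 to 0.205. Leaving out any one of microglia replicates 39 and 40, parabiotic replicates 3, 11 and 15, or transgenic replicates 23, 24 and 27 was enough to lose it. Transgenic against parabiotic cells gave -0.49 ± 0.17 (edgeR adjusted p = 0.1, within-run value -0.46) with no overlap of libraries, and the difference was called without transgenic replicate 27 (-0.57), over a range of 0.039 to 0.27. Cxcl16 overlaps Zmynd15 on the other strand, and reads of both there cannot be told apart.

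**Figure D2:**
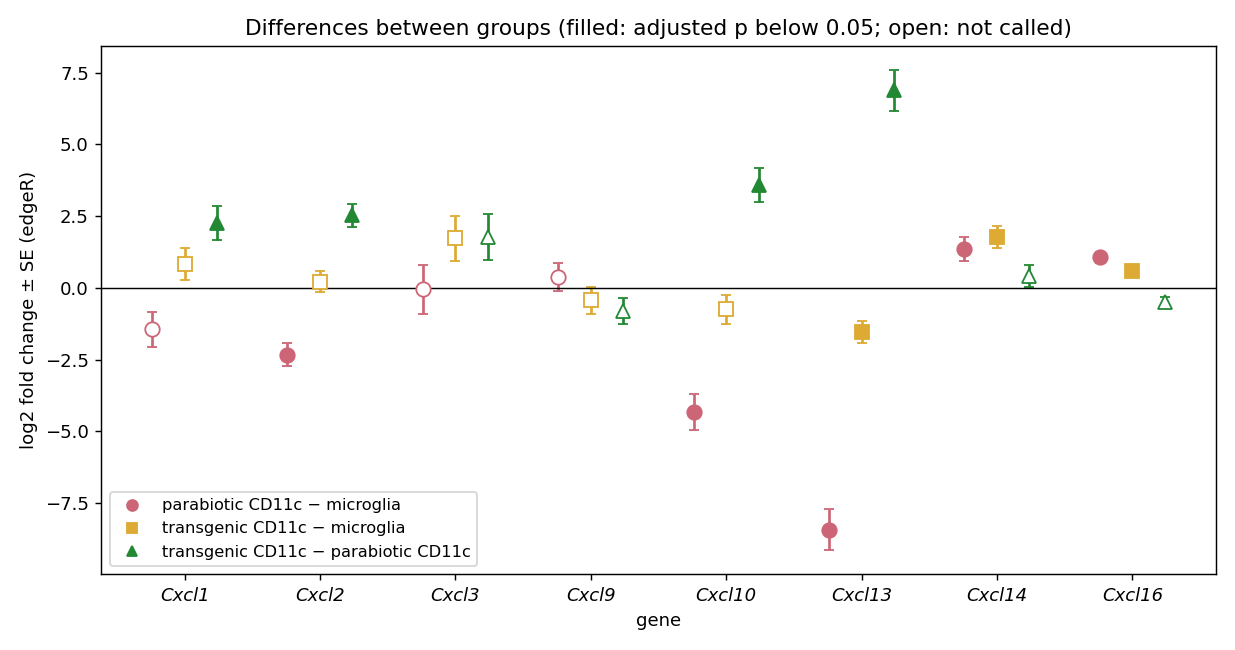
Log2 fold change with SE (vertical axis) of each CXC chemokine (horizontal axis) in the 3 comparisons, filled where the edgeR adjusted p was under 0.05. Cxcl10 and Cxcl13 show the widest differences of parabiotic cells from both other groups, and the Cxcl13 values rest on 1 parabiotic count.

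Summed per kilobase, the 8 members together were at 284.7, 300.5 and 409.7 in microglia, at 264.5, 251.8 and 254.3 in parabiotic cells and at 293.3, 277.5, 502.6 and 331.9 CPM per kb in transgenic cells. The 3 parabiotic sums lay below every other library on this scale only. Without division by length they were 766.1, 727 and 732.8 CPM and overlapped microglia, at 693.6, 735.3 and 992.7 CPM. The make-up of the sum per kilobase differed too. Cxcl16 held 32.2% ± 2.44 (SD, n = 3) of the sum in microglia, 86.2% ± 0.939 (SD, n = 3) in parabiotic cells and 48.3% ± 15.8 (SD, n = 4) in transgenic cells. Cxcl9 and Cxcl10 held 41.4% ± 5.15, 3.11% ± 0.507 and 21.5% ± 11.6. Nearly all of it was Cxcl10 in microglia and transgenic cells. In parabiotic cells Cxcl10 averaged 6.80 and Cxcl9 1.20 CPM per kb. Cxcl1, Cxcl2 and Cxcl3 held 24.1% ± 2.12, 6.65% ± 1.55 and 25.8% ± 7.92. The remainder, Cxcl13 and Cxcl14, held 2.40% to 4.30% on average. The order of the members by mean level per kilobase in microglia was Cxcl10 (136.8 ± 36.4), Cxcl16 (106.1 ± 18.2) and Cxcl2 (73.6 ± 14.3), neighbours whose library ranges met or nearly met. In parabiotic cells it was Cxcl16 (221.5 ± 8.09), Cxcl2 (14.7 ± 3.71) and Cxcl14 (10.3 ± 1.78), of which Cxcl16 stood clear of the rest. In transgenic cells it was Cxcl16 (157.9 ± 25.96), Cxcl2 (85.0 ± 47.3) and Cxcl10 (81.7 ± 69.5), with overlapping ranges. Length by the longest protein-coding transcript, chosen after seeing the data because the exons include retained introns, put Cxcl10 ahead of Cxcl2 in transgenic cells and ahead of Cxcl14 in parabiotic cells, and gave Cxcl16 26.6%, 84.9% and 43.8% and Cxcl9 with Cxcl10 50.6%, 4.29% and 27.9%.

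**Figure D3:**
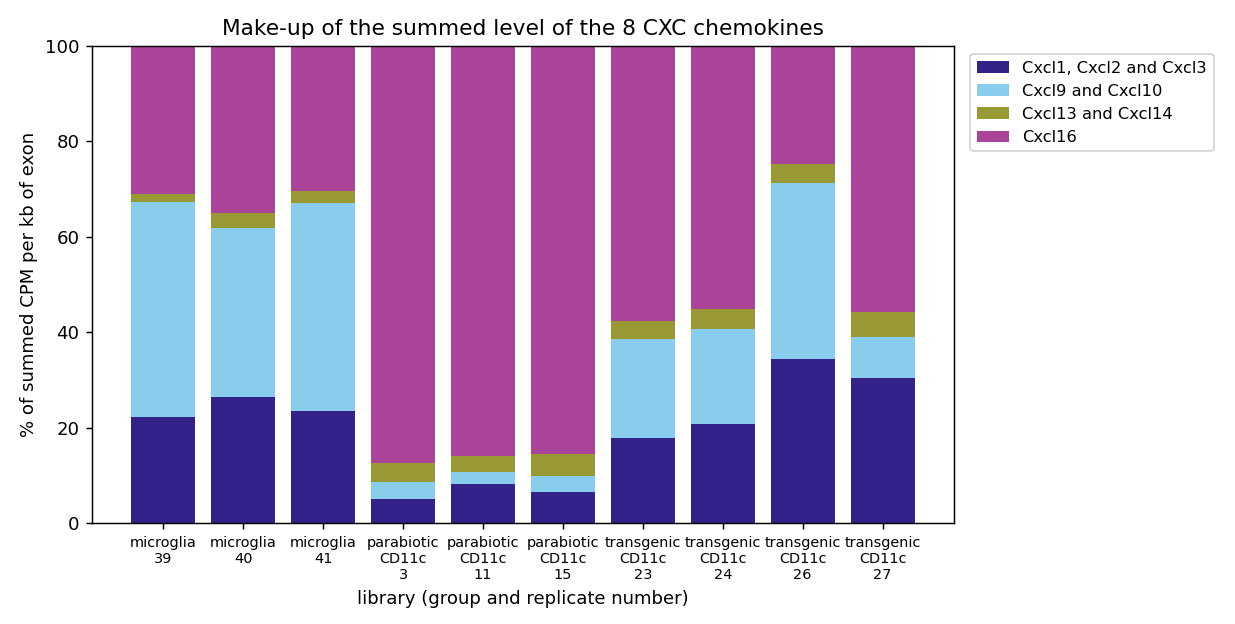
Share in percent of the summed CPM per kb of the 8 members (vertical axis) held by 4 sets of members in each library (horizontal axis). Cxcl16 fills 85.5% to 87.3% of each parabiotic library, and transgenic replicate 26 has 24.7%, below the microglial libraries.

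Across the 10 libraries, which share their groups and scaling, Pearson correlations of log2 CPM were highest among Cxcl1, Cxcl2, Cxcl10 and Cxcl13. Cxcl10 and Cxcl13 (r = 0.92), Cxcl2 and Cxcl13 (0.92), Cxcl2 and Cxcl10 (0.88) and Cxcl1 and Cxcl2 (0.88) ran in parallel. Cxcl14 and Cxcl16 ran in parallel less closely (0.66), and Cxcl16 ran opposite to Cxcl10 (-0.88), Cxcl13 (-0.85) and Cxcl2 (-0.72). The neighbours Cxcl9 and Cxcl10 had r = -0.24, and Cxcl2 and Cxcl3 had 0.42. These are descriptions, and the differences between groups enter all of them.

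The genes most like each member over the 10 libraries, among those with a mean of at least 5 CPM, are named by the same correlation. For Cxcl10 it was the annexin Anxa3 (r = 0.998), at 477, 166 and 373 CPM on average in microglia, parabiotic and transgenic cells, followed by Pla2g4a and Abhd17c. For Cxcl13 they were Tmem64 (0.988), Lrrc75a and Tpbgl, and for Cxcl16 the thioesterase Acot7 (0.986), at 6.16, 33.2 and 16.0 CPM, Slc35e4 and Fam129b. Cxcl2 was matched by the serine synthesis enzyme Psat1 (0.984), Xlr and Esco2, and Cxcl1 by the kinesin Kif18a (0.981), the condensin subunit Smc2 and Cks1b. Cxcl14 was matched by the endocytic adaptor Dab2 (0.961), Ugdh and the elastase Mmp12, which stood at 11.1, 40.3 and 72.5 CPM. The best matches of Cxcl3 and Cxcl9 were weaker, Rcn2 (0.906), Copb1 and Morf4l2 for Cxcl3 and Zfp444 (0.881), Pbx2 and Coq8b for Cxcl9.

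**Figure D4:**
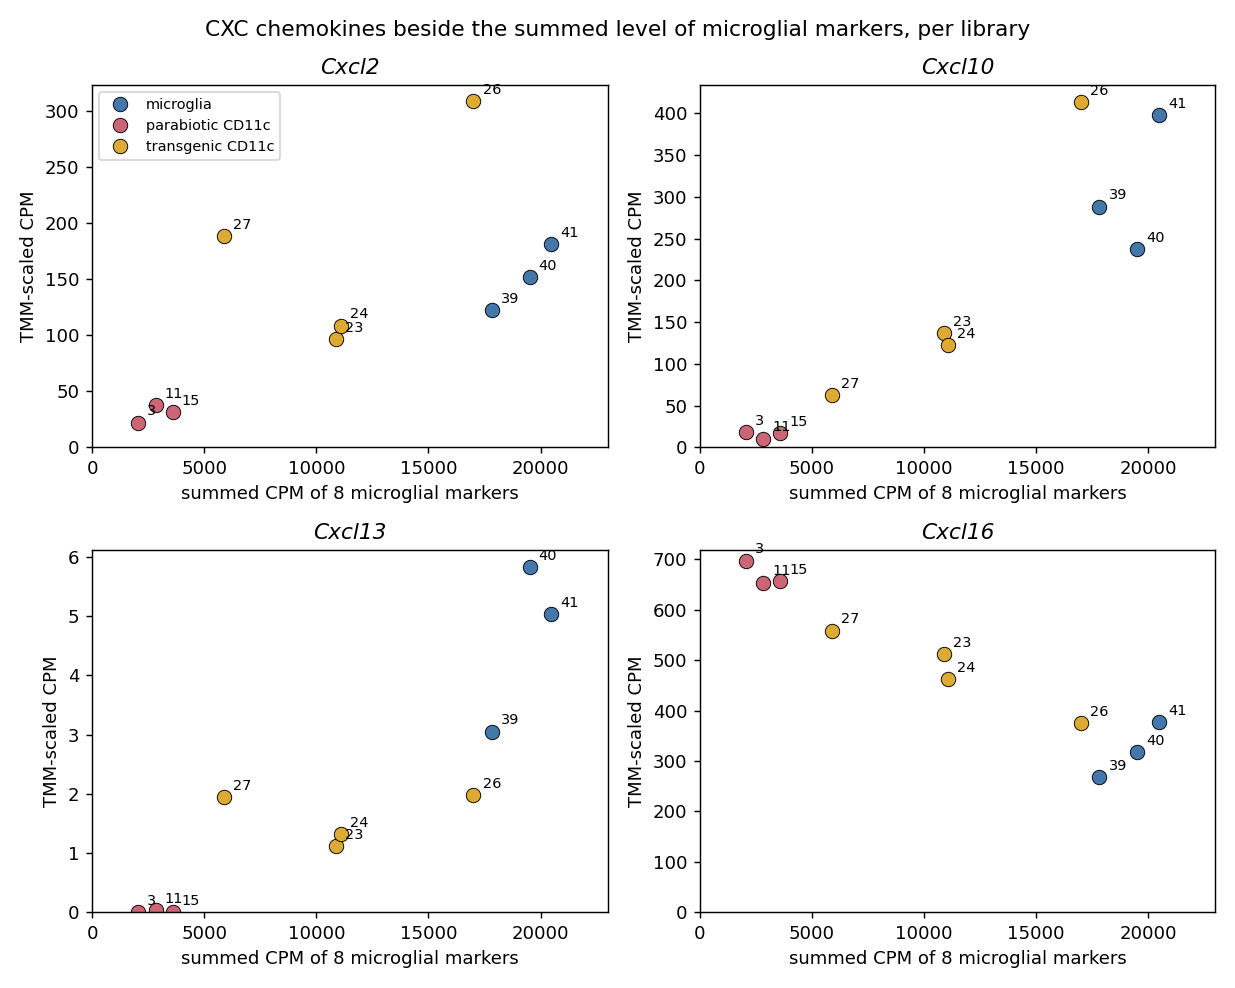
TMM-scaled CPM of 4 CXC chemokines (vertical axes) against the summed CPM of 8 microglial markers (horizontal axes), 1 point per library with its replicate number. Transgenic replicate 26, at 17010 CPM of markers, lies near the microglia for Cxcl10 and Cxcl16, whereas its Cxcl2 level of 309.2 CPM exceeds theirs.

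Marker levels of other cells moved with the groups. The sum of 9 neutrophil markers was 411 to 491 CPM in microglia, 187 to 1100 CPM in parabiotic cells and 120 to 322 CPM in transgenic cells, with Retnlg and Elane at 0 in microglia and Camp and Ngp at 0 in transgenic cells. Nearly all of the microglial sum was Csf3r (409.3 to 488.8 CPM), which was lower in parabiotic cells. There S100a8, Mmp8, Ngp and Ltf were higher, beside 17.4% of all genes, and 4 of the 9 did not pass the filter. The sum of the 9 was 1100 CPM in parabiotic replicate 11 against 187.4 and 342.1 CPM in replicates 3 and 15. Across these libraries S100a8 ran from 5.05 to 202.2 CPM, Mmp8 from 44.7 to 105.3, Ngp from 0.316 to 189 and Ltf from 0.718 to 148 CPM. The 6 monocyte markers summed to 10.0 to 12.8, 858 to 1020 and 248 to 658 CPM, and the 6 markers of border-associated macrophages to 196 to 401, 517 to 645 and 213 to 1200 CPM, the last value from transgenic replicate 27. In parabiotic cells Pf4 and F13a1 of these were higher than in microglia, beside 17.4% of all genes. Cd163 and Lyve1 were lower, beside 17.9%, and 2 were not called, with a median log2 fold change of -0.33. Astrocyte markers (7) summed to 107 to 184, 15.3 to 18.6 and 26.7 to 63.4 CPM. In parabiotic cells Slc1a3, which made up most of the microglial sum, and Gfap were lower than in microglia. These stood beside 17.9% of all genes called lower, and 5 of 7 were not called. Endothelial (7), neuronal (6), fibroblast (5), B cell (5) and T and NK cell (6) markers summed to at most 49.3, 4.94, 28.4, 24.3 and 3.43 CPM in a library, with the neuronal Slc17a7 at 0 in parabiotic cells. The part of these cells in the chemokine differences was not tested.

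Of 7 other CXC chemokines 6 were in the table and 4 were tested. Against microglia 2 were higher and 1 lower in parabiotic cells, beside 17.4% and 17.9% of all genes, and 1 was not called. In transgenic cells 1 was higher than in microglia, beside 8.88% of all genes, and 3 were not called. Parabiotic cells had higher Pf4, the platelet factor also made by macrophages and counted among the border-associated macrophage markers, at 77.6, 80.8 and 67.3 against 9.65, 19.3 and 16.2 CPM (2.32 ± 0.56, edgeR adjusted p = 0.00776). They had lower Cxcl11, the third Cxcr3 ligand, at 0.143, 0.365 and 0.334 against 1.02, 1.20 and 3.73 CPM (-2.81 ± 0.71, edgeR adjusted p = 0.00987). Ppbp, another platelet chemokine, had no count in microglia and 15, 99 and 36 counts in parabiotic replicates 3, 11 and 15 (edgeR adjusted p = 0.00931). It was thus at least 49.5-fold higher, with 3 counts taken as the limit in microglia, and at least 25-fold higher without replicate 11. In transgenic cells Pf4 was higher than in microglia (1.74 ± 0.53, edgeR adjusted p = 0.0499) at 19.3, 21.6, 59.5 and 100.9 CPM, a spread that reached the microglial range. Cxcl11 (-1.47 ± 0.60) and Ppbp were not called there (edgeR adjusted p = 0.116 and 0.104). Of 33 Ppbp counts in transgenic cells 26 came from replicate 27, and the bound of at least 7.13-fold over microglia was 2.07-fold without it. None of the 4 was called between the CD11c groups in edgeR, beside 10.1% of all genes in either direction. There 1 of them, Ppbp, had an unadjusted p under 0.05. Cxcl12, a chemokine of stromal cells, stayed at 0.23 to 1.00 CPM in all libraries and was not called, and Cxcl5 (at most 0.287 CPM) and Cxcl17 (at most 0.307 CPM) did not pass the filter.

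Of 8 CXC chemokine receptors 6 were tested. Against microglia 2 were higher and 1 lower in parabiotic cells, beside 17.4% and 17.9% of all genes, and 3 were not called. In transgenic cells 2 were higher than in microglia, beside 8.88% of all genes, and 4 were not called. Against parabiotic cells 1 was higher in transgenic cells, beside 7.63%, and 5 were not called. Cxcr4, the receptor of Cxcl12, was at 19.98, 21.2 and 33.2 CPM in microglia, 327.2, 364.8 and 302.2 CPM in parabiotic cells and 177.9, 135.0, 123.5 and 332.7 CPM in transgenic cells. It was higher than in microglia in both sorts, by 3.74 ± 0.38 (edgeR adjusted p = 3.8e-05) and 2.95 ± 0.36 (edgeR adjusted p = 0.000549), with no overlap. Of all genes 30.5% and 15.6% were higher without overlap in these comparisons. Cxcr3, which binds Cxcl9 and Cxcl10, was at 0.536, 1.04 and 0.886 CPM in microglia against 7.03, 8.88 and 12.2 CPM in parabiotic cells (3.51 ± 0.50, edgeR adjusted p = 0.000327). In transgenic cells it was at 5.97, 6.52, 3.97 and 1.73 CPM (2.46 ± 0.47, edgeR adjusted p = 0.00715). Against microglia Cxcl10 was lower in parabiotic cells and not called in transgenic cells. A relation between Cxcr3 and Cxcl10 was not tested. Ackr3, a scavenging receptor for Cxcl12, was at 4.63, 8.47 and 12.6 CPM in microglia and at 0.201, 0 and 0.637 CPM in parabiotic cells (-4.92 ± 0.87, edgeR adjusted p = 0.0013). Transgenic cells, at 3.29, 3.18, 3.69 and 1.12 CPM, exceeded parabiotic cells (3.32 ± 0.81, edgeR adjusted p = 0.0248) and were not called against microglia (-1.60 ± 0.66, edgeR adjusted p = 0.121).

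The receptor of the ELR chemokines, Cxcr2, was at 0.113, 0.184 and 0.664 CPM in microglia and at 0.0287, 8.42 and 1.40 CPM in parabiotic cells. In transgenic cells it was at 0.223, 0.0539, 0.202 and 0.535 CPM. Only parabiotic replicate 11, the library with the highest neutrophil marker sum, exceeded 2 CPM, and no comparison was called (edgeR adjusted p = 0.0718, 0.886 and 0.0833). Cxcr5, the receptor of Cxcl13, was at 1.16 ± 0.328, 2.43 ± 0.762 and 0.988 ± 0.854 CPM and Cxcr6, which binds Cxcl16, at 0.39 ± 0.0636, 1.22 ± 1.65 and 0.453 ± 0.259 CPM (SD, n = 3, 3 and 4). Neither was called in any comparison in edgeR. Cxcr1 and Ackr1 stayed below 2 CPM in every library and did not pass the filter.

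Among 4 proteases that act on these chemokines, Dpp4, which trims and inactivates Cxcl9 and Cxcl10, was at 0.311, 0.522 and 0.221 CPM in microglia, 167.8, 119.5 and 171.0 CPM in parabiotic cells and 97.6, 89.7, 16.7 and 22.98 CPM in transgenic cells. It was higher than in microglia by 8.75 ± 0.84 and 7.32 ± 0.80 (edgeR adjusted p = 2.5e-05 and 0.000276). Adam10, the main constitutive sheddase of Cxcl16, was at 655.1, 644.6 and 583.9 CPM in microglia and 352.9, 341.0 and 332.2 CPM in parabiotic cells, and fell by 0.88 ± 0.15 on the log2 scale (edgeR adjusted p = 0.00111). Cxcl16 transcript was higher in those same parabiotic libraries, and a link between Adam10 and Cxcl16 was not tested. Transgenic cells, at 512.9, 585.0, 427.9 and 481.1 CPM, had more Adam10 than parabiotic cells (0.55 ± 0.14, edgeR adjusted p = 0.0317). Adam17, the other sheddase of this kind, and Rhbdf2, which guides Adam17 to the cell surface, were not called in any comparison. Thus 1 of 4 was higher and 1 lower in parabiotic cells than in microglia, beside 17.4% and 17.9% of all genes. In transgenic cells 1 was higher than in microglia, beside 8.88%, and 1 higher than in parabiotic cells, beside 7.63%.

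Of 11 NF-kappaB subunits and feedback regulators 6 were lower in parabiotic cells than in microglia, beside 17.9% of all genes, and 5 were not called. Nfkbiz, a nuclear cofactor, was at 1915, 2033 and 1691 CPM in microglia and 160.7, 136.0 and 223.1 CPM in parabiotic cells (-3.44 ± 0.23, edgeR adjusted p = 3.3e-06). The inhibitors Tnfaip3 (-2.24 ± 0.24) and Nfkbia (-2.04 ± 0.24) were lower too (edgeR adjusted p = 4.6e-05 and 0.000105). Rela, Zfp36 and Zc3h12a made up the rest of the lower genes, whereas the subunits Nfkb1, Nfkb2, Rel and Relb were not called. The inhibitor Nfkbie was not called either (0.77 ± 0.35, edgeR adjusted p = 0.113), although its parabiotic libraries lay above all microglial ones. In transgenic cells Nfkbiz, at 1029, 1029, 989 and 748.5 CPM, and Tnfaip3 were lower than in microglia by 0.99 ± 0.19 and 0.84 ± 0.21 (edgeR adjusted p = 0.00769 and 0.0252). These were 2 of 11, beside 4.79% of all genes, and 9 were not called. Against parabiotic cells 3 of 11 were higher in transgenic cells, beside 7.63% of all genes, Nfkbiz (2.45 ± 0.21), Tnfaip3 (1.41 ± 0.22) and Nfkbia (1.40 ± 0.23), with edgeR adjusted p = 5.5e-05, 0.0023 and 0.00295. The other 8 were not called there.

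Of 11 interferon receptors, kinases and transcription factors 3 were lower and 2 higher in parabiotic cells than in microglia, beside 17.9% and 17.4% of all genes, and 6 were not called. Irf1 (-1.78 ± 0.24, edgeR adjusted p = 0.000235), which acts on the Cxcl9 and Cxcl10 genes, Stat2 (-1.44 ± 0.27, 0.00195) and Irf7 (-1.20 ± 0.37, 0.0259) were lower. The kinase Jak2 (1.54 ± 0.29, edgeR adjusted p = 0.00178) and the receptor chain Ifnar1 (0.91 ± 0.19, 0.00375) were higher. In transgenic cells 3 of 11 were lower than in microglia, beside 4.79% of all genes, and 8 were not called. The lower genes were Stat2 (-1.55 ± 0.25), Irf7 (-1.57 ± 0.34) and Irf1 (-0.92 ± 0.22), with edgeR adjusted p = 0.00283, 0.0129 and 0.0208. Irf1 alone was higher in transgenic than in parabiotic cells (0.87 ± 0.23, edgeR adjusted p = 0.0325), beside 7.63% of all genes.

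Of 4 genes of the lymphotoxin axis, through which Cxcl13 is induced in lymphoid tissue, 3 were tested. The ligands Ltb (3.54 ± 0.85, edgeR adjusted p = 0.0075) and Tnfsf14 (2.12 ± 0.57, 0.0133) were higher in parabiotic cells than in microglia, beside 17.4% of all genes. The receptor Ltbr was not called (0.41 ± 0.17, edgeR adjusted p = 0.0863). The parabiotic cells were the group in which Cxcl13 had 1 count, and the part of the lymphotoxin axis in its level was not tested. In transgenic cells against microglia and against parabiotic cells the 3 genes were not called in edgeR, beside 13.7% and 10.1% of all genes called. Against microglia the differences were 1.69 ± 0.77 for Ltb and 1.60 ± 0.54 for Tnfsf14. Of 16 immediate early and heat shock genes, which enzymatic dissociation can induce, 7 were lower in parabiotic cells than in microglia, beside 17.9% of all genes. These were led by Egr1 (-4.32 ± 0.41), Jun (-2.12 ± 0.26) and Ier2 (-1.60 ± 0.28), with edgeR adjusted p = 2.4e-05, 0.000121 and 0.00118. The other 9 were not called, among them the heat shock genes Hspa1a (0.43 ± 0.41) and Hspa1b (0.56 ± 0.495). Transgenic cells had 5 lower than microglia, beside 4.79% of all genes, led by Jun (-1.39 ± 0.23), Egr1 (-1.58 ± 0.34) and Ier3 (-0.76 ± 0.20), with edgeR adjusted p = 0.00358, 0.0121 and 0.0312. Egr1 alone was higher in transgenic than in parabiotic cells (2.75 ± 0.37, edgeR adjusted p = 0.001), beside 7.63% of all genes. Fos, Fosb, Junb, Dusp1 and Nr4a1 were not called in any comparison. The list moved in part with Cxcl2, Cxcl10 and Cxcl13, and its part in their levels was not tested.

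**Figure D5:**
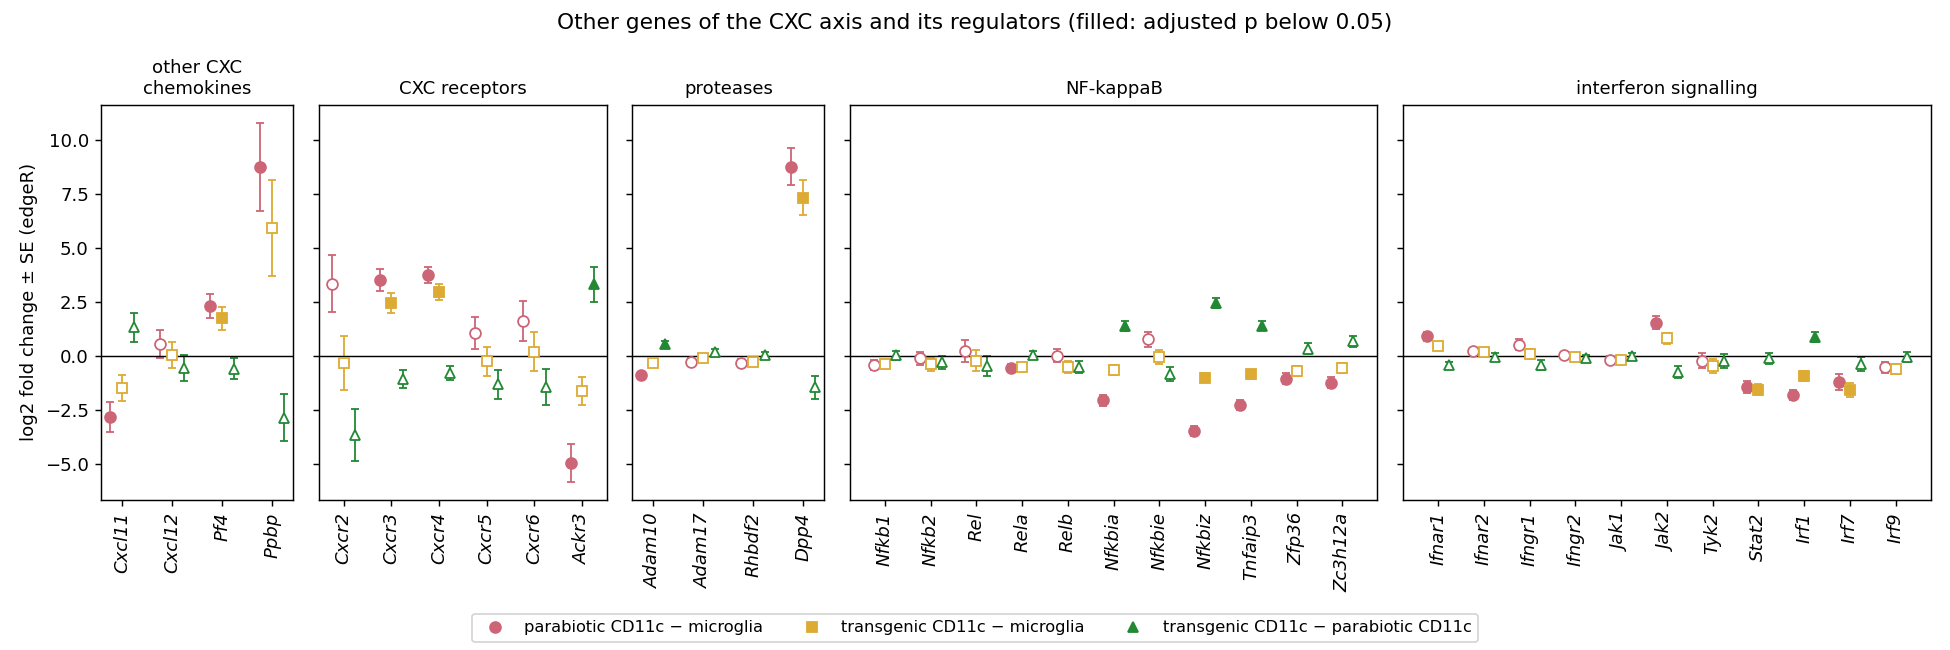
Log2 fold change with SE (vertical axis) of tested genes of 5 lists (horizontal axis) in the 3 comparisons, filled where the edgeR adjusted p was under 0.05. Nfkbiz is the lowest of its list in parabiotic cells at -3.44, Dpp4 and Cxcr4 are higher than in microglia in both CD11c sorts, and the Ppbp values rest on 0 counts in microglia and are no bound.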

How the data were processed

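RNA sequencing counts of 10 libraries (31534625 to 41730688 counts each) were analysed. The deposited table holds a whole-number count for each Ensembl gene, with no normalization by the authors. As tools and build, the submitters' processing notes list GRCm38, STAR 2.5.3a, FastQC 0.11.5 and DESeq2. For the read counting step, the sources used here give neither program nor strand setting. Per the labels' protocols the cDNA was made with SMART-Seq v4 and the libraries with a NEBNext Ultra DNA kit, which does not mark strand. GENCODE M21 symbols matched 28492 of 28585 identifiers.

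Genes were filtered with filterByExpr by group, scaled by TMM and tested in edgeR 4.0.16 (R 4.3.3) with the robust quasi-likelihood F test in 1 fit of all 10 libraries, with Benjamini-Hochberg adjustment over the 15151 genes tested and a threshold of 0.05. Alternatives used limma-voom 3.58.1, DESeq2 1.42.0, other scalings and filters, and left out libraries. The script was tested on simulated data. The members and gene lists were chosen with earlier results of these data known. Named genes were the members, all genes of the lists of other CXC chemokines and receptors, up to 3 higher and 3 lower called genes of lowest p per other list and comparison, and the 3 genes most correlated with each member, and further genes of these lists were named after their values were seen. Promoters came from RefSeq (GRCm38.p6). Protein features were not analysed here. One gene of the list of interferon receptors, kinases and transcription factors is not reported here.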

Additional observations from a re-analysis of the deposited data

How the results depend on the processing

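Members called numbered 5, 3 and 4 in the comparisons parabiotic against microglia, transgenic against microglia and transgenic against parabiotic. Without one library each they ranged from 4 to 6, 0 to 4 and 3 to 5, and with the term for transgenic replicates 26 and 27 the second was 1. Genes called over the whole table, 5347, 2070 and 1523, ranged without one library each from 3747 to 6458, 746 to 2684 and 829 to 2510. For transgenic against microglia they were 3437 in DESeq2, 1229 in the fit of 2 groups, 1303 with the term and 5363 without replicates 23 and 24. For transgenic against parabiotic they were 2419 in DESeq2, 999 in the fit of 2 groups, 3482 without replicates 26 and 27 and 3136 without replicates 23 and 24. Without replicates 26 and 27, parabiotic against microglia had 8334 genes called. The cause was not tested. The microglial share of Cxcl1, Cxcl2 and Cxcl3 was 21% with coding transcript length. Leaving out these pairs and the coding length were chosen after seeing the data. No called value changed sign. Of the member fold changes under alternatives 448 kept their side of the threshold, 35 lost and 12 gained a call. Cxcl2, Cxcl10 and Cxcl13 in both comparisons with parabiotic cells, and Cxcl16 between parabiotic cells and microglia, kept their calls wherever they could be tested. The stricter filter of 5 CPM removed Cxcl3, Cxcl9 and Cxcl13. Depth limits Cxcl3 in microglia and parabiotic cells (32 counts each) and Cxcl13 in parabiotic cells (1 count). No paired analysis was possible because the groups share no replicate numbers. The Ppbp bounds without each library were chosen after seeing the data.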
